A study of Mus musculus with 3 samples.

Results

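The cells described here are hepatocytes of 1 library, from mice on a high fat diet, in which at least 1 transcript of Cyp7a1 was counted. They numbered 194 of 1275 cells (15.2%, exact binomial 95% interval 13.3 to 17.3%), and the 1081 cells of the same library with 0 Cyp7a1 molecules were the comparison. They were chosen by their Cyp7a1 count. Barcodes with 500 or more genes entered, unless mitochondrial transcripts made up over 50% of their counts. Each cell was then thinned, by drawing without replacement, to 1000 unique molecular identifiers (UMIs, the tags that mark each captured transcript), and was called positive by its Cyp7a1 count after thinning. Of the 6290 barcodes in this library, 1368 passed the filters and 93 of those held fewer than 1000 UMIs and were left out. Library totals were 7593447 UMIs in HFD, 8753465 in HFD_HDCA and 8677998 in ND. The whole series held 16918 barcodes and 4198 cells after the same steps. The selection used the Cyp7a1 count, so that count is a description and no result.

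The series profiled primary hepatocytes of WT mice by droplet 3′ RNA sequencing after collagenase perfusion. Mice were on a 60% high fat diet (HFD), on that diet with 0.25% hyodeoxycholic acid, a bile acid (HFD_HDCA), or on a normal diet (ND), for 12 weeks. The labels state neither how many mice gave each library nor their sex or age. Each diet had 1 library, so no difference has a replicate check and no p-value was computed. All intervals below cover counting error only.

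Cyp7a1 encodes cholesterol 7α-hydroxylase, the rate-limiting enzyme of the classical pathway that turns cholesterol into bile acids. It is repressed by bile acids returning to the liver, through the nuclear receptor Fxr (Nr1h4) and the intestinal hormone Fgf15. Hepatocytes divide their work along the lobule: periportal cells, where blood enters, favour gluconeogenesis, urea synthesis and secretion of plasma proteins, while pericentral cells, where blood leaves, favour drug metabolism, glutamine synthesis and bile acid synthesis. Mouse Cyp7a1 lies on chromosome 4 at 6265612 to 6275633, minus strand (mm10).

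Most positive cells rested on a single molecule. Of the 194 cells, 162 had 1 Cyp7a1 UMI, 27 had 2 and 5 had 3. Before thinning 368 of the 1275 cells had a Cyp7a1 UMI (28.9%), and 174 of the 1081 negative cells (16.1%) were among them. A cell called negative may therefore still express the gene. Median depth before thinning was 2491 UMIs in positive cells and 2624 UMIs in negative cells. The median mitochondrial share was 9.43% in positive cells and 11.9% in negative cells.

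Hepatocyte markers were counted in both groups, at a somewhat lower summed level in positive cells. All 12 hepatocyte markers were measured, 0 of them differed by 1.5-fold, and Alb was counted in 100% of positive and 99.9% of negative cells. Of the 12, 9 were lower in positive cells and 3 higher. Levels are scaled to the nuclear-encoded UMIs of each group (CPM, defined below). The markers summed to 99990 CPM (98503 to 101494) in positive and 113607 CPM (112929 to 114289) in negative cells. Detection of Alb does not by itself identify a hepatocyte. The 14 HFD cells rich in markers of other liver cells had a median of 3 Alb UMIs, against 40 in the other cells. Markers of other liver cells summed to few UMIs in the 194 positive cells, a smaller group than the 1081 negative cells. The 12 endothelial markers summed to 2 UMIs in positive and 63 UMIs in negative cells (11.6 and 66.6 CPM). The 12 markers of Kupffer cells (resident macrophages) summed to 9 and 190 UMIs (52.2 and 201 CPM). The 10 stellate markers summed to 0 and 18 UMIs (0 and 19.0 CPM). The 12 lymphocyte markers summed to 1 UMI in positive and 29 UMIs in negative cells (5.80 and 30.7 CPM). The 8 markers of bile duct cells summed to 4 and 31 UMIs (23.2 and 32.8 CPM). The intervals of these levels overlapped for stellate, lymphocyte and bile duct markers. Only for endothelial and Kupffer markers were they apart, with the lower level in positive cells. Red cell markers were the exception, with 251 UMIs in positive cells and 85 UMIs in negative cells, but 241 of the 251 lay in 1 cell. Without that cell 42 genes were at least 1.5-fold higher and 28 lower in positive cells, against 40 and 28 with it.

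Free RNA in the droplets can give a Cyp7a1 UMI to any barcode. Among 14 HFD cells rich in endothelial, macrophage, lymphocyte or stellate markers, 1 was positive (7.14%, 0.181 to 33.9%, median depth 1163.5 UMIs). Among the other 1261 cells 193 were positive (15.3%, median depth 2619 UMIs). With so few cells rich in those markers, a difference between these shares was not detectable. How many of the positive cells owe their UMI to free RNA was not tested. The libraries shared few barcodes: 6 between HFD and HFD_HDCA, 16 between HFD and ND and 10 between HFD_HDCA and ND. Of the HFD cells 5 had a barcode that another library lists, and 0 of them were positive.

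Positive cells were more frequent toward the pericentral end of the lobule. Each cell was given a zone score, the log2 ratio of UMIs of 11 pericentral genes to UMIs of 11 periportal genes after adding 1 to each, with Cyp7a1 left out. The median score was 1.08 in positive cells and -1 in negative cells. When the 1275 cells were ordered by score and cut into 5 zone bins of 255 cells, the positive cells numbered 3 (1.18%) in bin 1, the most periportal, then 14 (5.49%), 44 (17.3%), 59 (23.1%) and 74 (29.0%, 23.5 to 35.0%) in bin 5, the most pericentral. The 2 most pericentral bins held 133 of the 194 positive cells (68.6%), and the 2 most periportal bins held 17 (8.76%). The share was thus higher in each bin than in the one before it, though the intervals of neighbouring bins overlapped except between bins 2 and 3. Median depth ranged from 1891 UMIs in bin 3 to 3012 UMIs in the most periportal, and the median mitochondrial share was 13.1% in the most periportal and 8.55% in the most pericentral bin. Even in the most pericentral bin, 181 of 255 cells (71.0%) had no Cyp7a1 UMI in 1000. Without thinning the share in that bin was 51.4%.

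The other libraries had fewer positive cells and the same order. The same steps gave 25 positive cells of 1652 in HFD_HDCA (1.51%, 0.982 to 2.23%) and 45 of 1271 in ND (3.54%, 2.59 to 4.71%). Before thinning, 3.21% of HFD_HDCA cells and 7.24% of ND cells had a Cyp7a1 UMI. Summed over all thinned cells, Cyp7a1 stood at 207 UMIs per 1000000 nuclear-encoded UMIs (CPM; 181 to 235) in HFD, at 17.6 CPM (11.5 to 25.8) in HFD_HDCA and at 44.6 CPM (33.0 to 59.0) in ND. From the most periportal to the most pericentral bin the positive cells numbered 0, 0, 3, 4 and 18 in HFD_HDCA and 0, 1, 7, 13 and 24 in ND. Bins were cut within each library, so the same bin number does not mean the same zone score. The median score of bin 4 was 1.08 in HFD, 1.19 in HFD_HDCA and -0.74 in ND. That of bin 5 was 2.20, 2.42 and 1.38. Shares at equal zone score were not compared between libraries. In HFD_HDCA 0 of 331 and 0 of 330 cells of the 2 most periportal bins allow shares of up to 0.906% and 0.909%, taken as 3 counts of the total. In ND 0 of 255 cells allows up to 1.18%. With 1 library per diet, diet and library cannot be told apart.

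**Figure D1:**
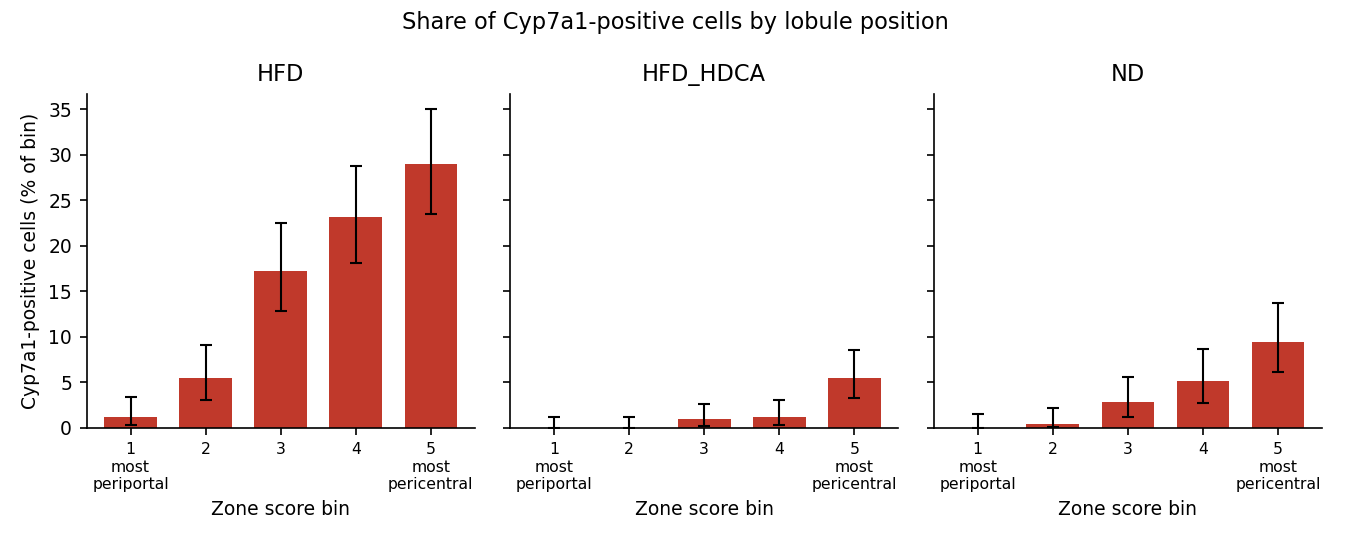
Share of Cyp7a1-positive cells (% of the cells of each bin, after thinning to 1000 UMIs) by bin of the zone score, from most periportal (1) to most pericentral (5), in the HFD, HFD_HDCA and ND libraries. Bins were cut within each library, so a bin number spans different scores in each. Bars are shares and error bars exact binomial 95% intervals; the HFD share runs from 1.18% to 29.0% across the bins.

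To describe how stable the split was, Cyp7a1 was also counted in molecules that it did not use. Of the 194 positive cells 76 (39.2%) had Cyp7a1 there, as did 174 of the 1081 negative cells (16.1%). The UMIs set aside by thinning contained Cyp7a1 at 465 CPM (388 to 552) in positive cells and at 149 CPM (130 to 170) in negative cells, a ratio of 3.11. Part of this ratio went with lobule position: within zone bins, positive cells held 130 Cyp7a1 UMIs where 76.9 were expected from negative cells of the same bins, a ratio of 1.69 (1.35 to 2.11). Over 9 other random thinnings the ratio ranged from 2.41 to 3.31 and the ratio within bins from 1.29 to 1.75. In the most pericentral bin alone the level was 547 CPM in positive cells and 304 CPM in negative cells. The ratio within bins was 5.45 (2.71 to 10.99) in HFD_HDCA, from 11 UMIs in positive cells, and 3.31 (1.97 to 5.56) in ND, from 22 UMIs. All 11 UMIs of HFD_HDCA lay in bin 5, and the positive cells of its bins 3 and 4 and of ND bin 2 had 0.

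**Figure D2:**
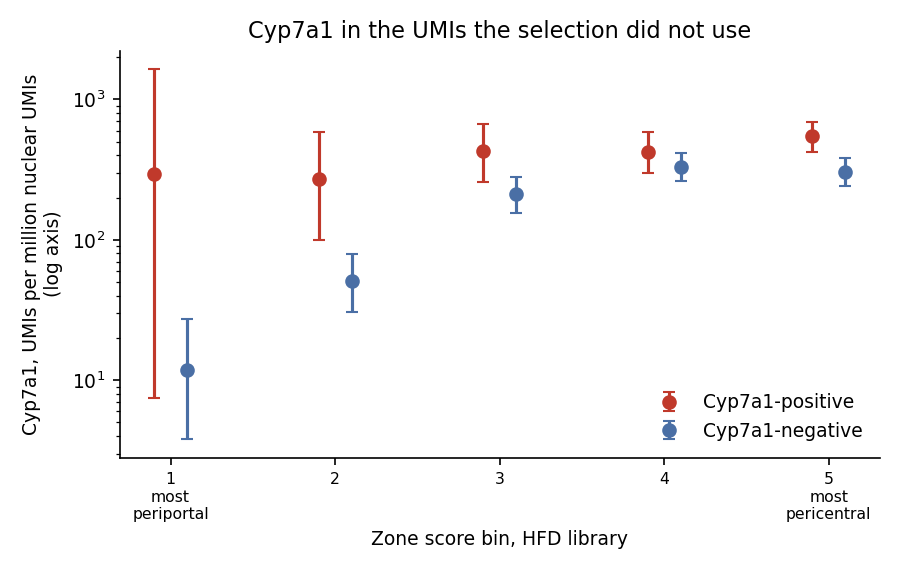
Cyp7a1 level (UMIs per 1000000 nuclear-encoded UMIs, log axis) in the UMIs removed by thinning, by zone bin of the HFD library, for Cyp7a1-positive (left of each pair) and Cyp7a1-negative cells (right). Error bars are exact Poisson 95% intervals; the positive cells lie above the negative cells in each bin, with overlapping intervals in bins 1, 3 and 4.

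Other genes were compared as summed counts per 1000000, with Cyp7a1 left out. Of 857 measured genes, those with at least 200 counts over both groups, 40 (4.67%) were higher in positive cells by 1.5-fold or more and 28 (3.27%) were lower by as much. The median log2 ratio of all 857 was 0.03. The count of 40 lay above that of 9 other random thinnings, which gave 24 to 38 higher and 23 to 30 lower genes. As positive status depends on which UMIs a thinning keeps, genes were also followed over all 10 draws. Of 800 genes measured in all 10 draws, 12 were past 1.5-fold upward and 9 downward in every draw. The 12 were Oat, Cyp2e1, Cyp1a2, Gulo, Cyp2c29, Cyp2c37, Cyp2c50, Cyp2c54, Mup17, Aldh3a2, Slco1b2 and Ang. The 9 were Hal, Hsd17b13, Sds, Cyp2f2, Mup20, Acly, Mt1, Fbp1 and Hpx.

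The genes higher in positive cells were led by pericentral enzymes. Cyp2e1, a cytochrome P450 that oxidises ethanol, stood at 7943 CPM in positive and 3882 CPM in negative HFD cells, with a median of 7 and 1 UMIs per cell. Its log2 ratio was 1.03 (0.94 to 1.12). In the other libraries it stood at 10323 CPM in positive and 5175 CPM in negative HFD_HDCA cells, and at 5243 CPM in positive and 1254 CPM in negative ND cells. Positive cells were thus higher in each library. Oat, ornithine aminotransferase, had a log2 ratio of 1.24 (1.03 to 1.45), Cyp1a2, which oxidises caffeine and aromatic amines, 1.07 (0.81 to 1.33), and Gulo, the last enzyme of vitamin C synthesis, 0.86 (0.52 to 1.19). These 4 are genes of the zone score. All 7 measured pericentral score genes were past 1.5-fold, and since the score sorts cells by them they only restate position.

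Pericentral genes that the score did not use followed. All 13 measured genes of such a list of 27 were above 0, with a median log2 ratio of 0.65, against 0.03 for all 857 genes. Of the 13, 8 were at least 1.5-fold higher, against 4.67% of all genes. The 4 largest belong to the Cyp2c family of drug and arachidonate oxidases: Cyp2c37 (log2 ratio 1.28), Cyp2c29 (1.18), Cyp2c54 (1.18) and Cyp2c50 (1.01). Cyp2c29 stood at 1004 CPM in positive and 443 CPM in negative HFD cells, at 1966 CPM and 641 CPM in HFD_HDCA, and at 2005 CPM and 465 CPM in ND. Ang, a secreted ribonuclease, reached 0.76 (0.38 to 1.11). Aldh3a2, a fatty aldehyde dehydrogenase in none of the lists, reached 1.12 (0.73 to 1.49). Counts of near-identical Cyp2c, Mup, Ugt2b and Gsta copies are uncertain as to how reads were shared among them.

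Mup17, a major urinary protein that carries pheromones, was higher in positive cells. It stood at 8569 CPM in positive and 4347 CPM in negative HFD cells, a log2 ratio of 0.98 (0.89 to 1.07). Positive cells were also higher in HFD_HDCA (1966 against 688 CPM) and ND (668 against 235 CPM). Mup20, another family member known as darcin, went the other way. It stood at 10101 CPM in positive and 24062 CPM in negative HFD cells, at 5318 and 12364 CPM in HFD_HDCA, and at 12106 and 23690 CPM in ND. Its log2 ratio was -1.25 (-1.32 to -1.18) in HFD, -1.21 in HFD_HDCA and -0.97 in ND. Of 15 measured Mup and male-biased genes 3 were at least 1.5-fold higher and 1 lower, with a median log2 ratio of 0.20. Over all 857 genes 4.67% were higher and 3.27% lower by as much.

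The genes lower in positive cells were led by periportal enzymes. Cyp2f2, a periportal cytochrome P450, stood at 418 CPM in positive and 1286 CPM in negative HFD cells, at 44.7 and 371 CPM in HFD_HDCA (1 UMI in positive cells), and at 822 and 1791 CPM in ND. Its HFD log2 ratio was -1.61 (-1.99 to -1.28). Hal, which starts histidine breakdown, had a log2 ratio of -1.80 (-2.67 to -1.12), Hsd17b13, a lipid droplet protein, -1.87 (-2.77 to -1.17), and Sds, serine dehydratase, -1.42 (-2.19 to -0.80). These 4 genes belong to the zone score, in which 5 of 7 measured periportal genes were past 1.5-fold. Outside the score, 18 of 20 measured periportal genes were below 0, with a median of -0.23, against 0.03 for all 857 genes. Of the 20, 4 were at least 1.5-fold lower, against 3.27% of all genes. These 4 included Uroc1, the next enzyme of histidine breakdown (-0.83), Apoc2, an activator of lipoprotein lipase (-0.76), and Fbp1 of gluconeogenesis (-0.63). Over the other draws Uroc1 ranged from -0.79 to -0.46 and Apoc2 from -1.28 to -0.54. Of these named genes only Fbp1 was past 1.5-fold in every draw. Of 19 measured secreted and acute phase genes only Hpx, which binds haem, was past 1.5-fold (-0.99, -1.24 to -0.76), and the list's median was -0.17. Alb had a log2 ratio of -0.49 (-0.53 to -0.45), short of 1.5-fold. Acly, which makes cytosolic acetyl-CoA for lipid synthesis, was at -0.84 (-1.35 to -0.40), and Mt1, a metal-binding protein, at -0.70 (-1.23 to -0.23).

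Whether zone genes account for these differences was examined by setting positive cells against negative cells of the same zone bin, over the 843 measured genes outside the score. Before this step 33 of them were higher by 1.5-fold or more, and 23 lower. Within bins 10 (1.19%) were at least 1.5-fold higher and 9 (1.07%) lower, of which 6 and 6 were among the 33 and the 23. These counts were 8 and 7 among cells with at most 25% mitochondrial counts, and 8 and 14 when cells were matched on mitochondrial share as well as zone bin. Of the 33 higher genes 31 lay closer to 0 within bins, and their median log2 ratio was 0.25 within bins and 0.70 before. Of the 23 lower genes 21 lay closer to 0, with a median of -0.35 within bins and -0.70 before. The median absolute log2 ratio of all 843 genes was 0.14 within bins and 0.18 before.

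The 19 genes past 1.5-fold within bins rested on few molecules and depended on the draw. Their median summed count was 237, and none had more than 92 UMIs in positive cells. Of the 800 genes none was past 1.5-fold within bins, in 1 direction, in 5 or more of the 10 draws, although 30 genes were higher and 58 lower in at least 1 draw. With at least 500 summed counts required, 0 genes were higher and 0 lower within bins. By their interval bounds, the leading genes in the main draw were Slc31a1, a copper importer (0.73, 0.37 to 1.10), Cdh2, the adhesion molecule N-cadherin (0.73, 0.28 to 1.18), and Lipa, the lysosomal acid lipase (0.77, 0.26 to 1.28). The next 3 were Cpn2 (0.75), Rsrp1 (0.66) and Ugdh (0.63), and the lowest besides Mup20 were Ptp4a2 (-0.93), Gpam (-0.84), Cyb5r3 (-0.79), Atp5d (-0.75) and Pfn1 (-0.62). Over the other draws Slc31a1 ranged from 0.01 to 0.39, Cdh2 from -0.03 to 0.86 and Lipa from 0.16 to 0.86. Slc31a1 thus fell short of 1.5-fold in each of those draws.

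**Figure D3:**
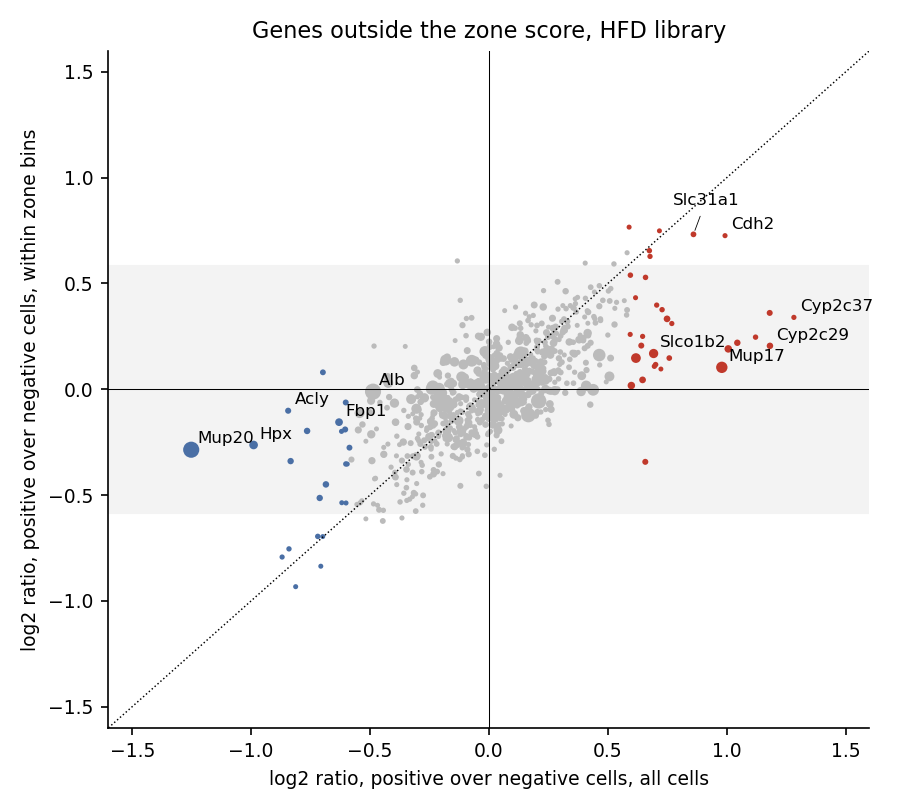
Each point is a measured gene outside the zone score in the HFD library, with point size growing with summed count. The x axis gives the log2 ratio of Cyp7a1-positive over negative cells over all cells and the y axis the same ratio within zone bins; red and blue mark genes at least 1.5-fold higher or lower over all cells, the band marks less than 1.5-fold within bins, and the dotted line marks equal values. Most coloured points lie in the band, as with Mup17 at 0.98 over all cells and 0.10 within bins.

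Named genes showed the same. The ratio within bins was 0.21 (-0.05 to 0.46) for Cyp2c29, 0.10 (0.02 to 0.19) for Mup17, 0.17 (0.03 to 0.31) for Slco1b2, 0.00 (-0.11 to 0.11) for Trf, the iron carrier transferrin, and -0.01 (-0.05 to 0.03) for Alb. Mup20 had -0.29 (-0.36 to -0.21), which lay between -0.38 and -0.20 over the 10 draws. It was -0.13 (-0.20 to -0.05) when the zone score was computed from all UMIs, and -0.14 (-0.31 to 0.03) when cells with 2 or more Cyp7a1 UMIs were called positive. By bin, Mup20 stood at 33120 CPM in positive and 43236 CPM in negative cells of bin 1, 25663 and 36094 CPM in bin 2, 12557 and 18254 CPM in bin 3, 9718 and 8900 CPM in bin 4, and 5291 and 6098 CPM in bin 5. Positive cells were lower in every bin but bin 4, with only 3 positive cells in bin 1. The bins were coarse. In bin 1 the median zone score was -3.32 in positive and -3.52 in negative cells, and in bin 2 it was -1.84 and -2.22. In bin 3 it was 0 and -0.49, in bin 4 it was 0.89 and 1.10, and in bin 5 it was 2.15 and 2.25. Positive cells thus scored as more pericentral in bins 1, 2 and 3 and as less so in bins 4 and 5. With 10 bins in place of 5 the Mup20 ratio was -0.23 (-0.30 to -0.15), and with the first principal component as the score it was -0.29.

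**Figure D4:**
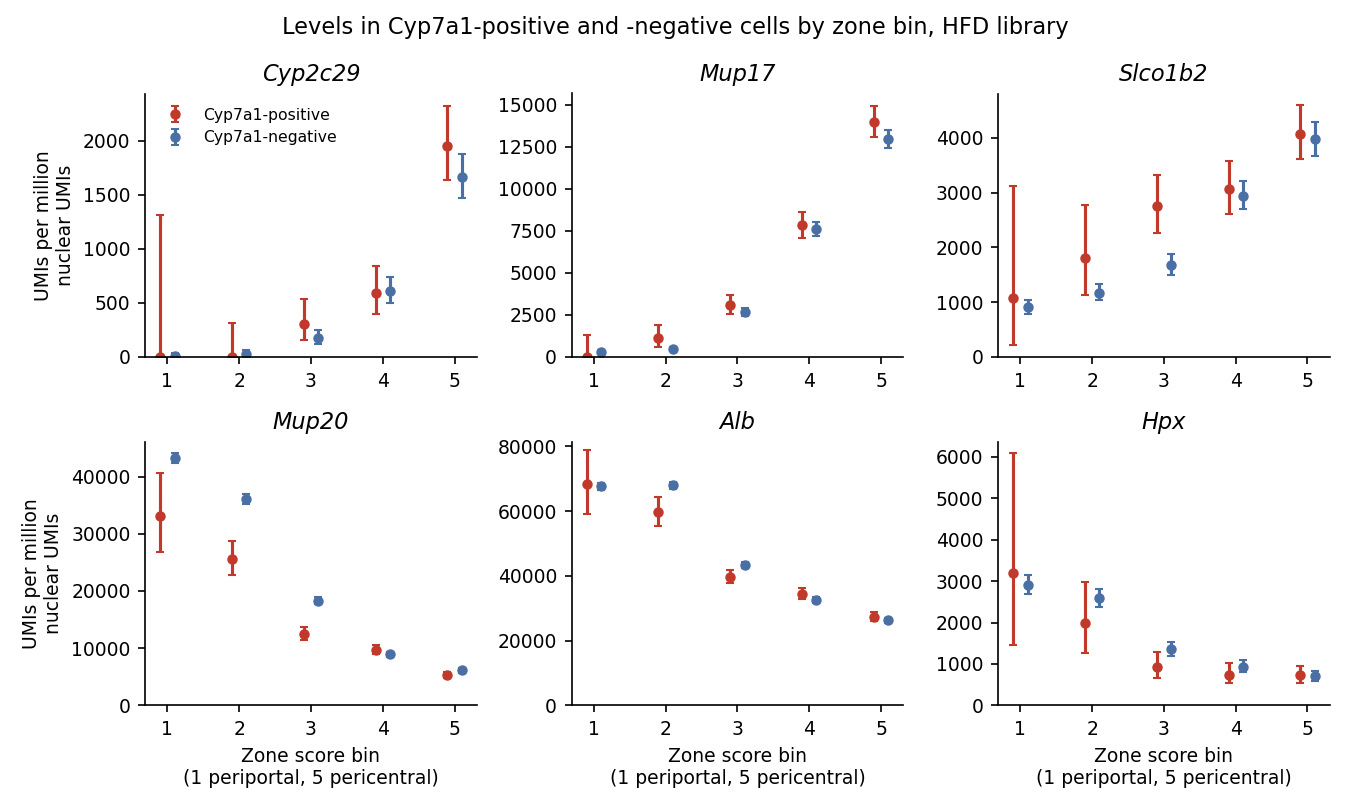
Levels (UMIs per 1000000 nuclear-encoded UMIs) of 6 genes by zone bin of the HFD library, from periportal (1) to pericentral (5), in Cyp7a1-positive cells (left of each pair) and negative cells (right), with exact Poisson 95% intervals. Each gene runs along the bins in both groups, and Mup20 is lower in positive cells in all bins but bin 4. Bin 1 holds only 3 positive cells.

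The gradient of the libraries that the selection did not use described the same split. A gene's zone gradient was its log2 ratio between the most pericentral and most periportal bin. Across genes, the HFD log2 ratio of positive over negative cells had a Pearson r of 0.59 with the HFD_HDCA gradient (782 genes) and of 0.51 with the ND gradient (607 genes). Within bins r was 0.07 and -0.07. Genes are not independent replicates, so these are descriptions. Of the higher genes with enough counts 25 of 26 were pericentral in HFD_HDCA and 19 of 19 in ND, against 56.4% and 61.0% of all genes. Of the lower genes 3 of 19 were pericentral in HFD_HDCA and 1 of 16 in ND.

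Genes of bile acid synthesis other than Cyp7a1 differed little. Of 20 such genes 11 were measured, 10 were above 0, none reached 1.5-fold in either direction, and their median log2 ratio was 0.20, against 0.03 for all genes. Over all 857 genes 4.67% were at least 1.5-fold higher and 3.27% lower. Hsd3b7, which acts just after Cyp7a1, stood at 621 CPM in positive and 468 CPM in negative cells (0.41, 0.09 to 0.72). Akr1c6, a hydroxysteroid dehydrogenase, stood at 2942 and 2250 CPM (0.39, 0.24 to 0.53). Akr1d1, which reduces the sterol ring, had 0.36 (-0.14 to 0.81), and Cyp2c70, the mouse enzyme behind muricholic acids, 0.25 (-0.04 to 0.53). Within bins the list's median was 0.05, with Hsd3b7 at 0.01 and Akr1c6 at -0.01. Cyp8b1, which directs synthesis to cholic acid, was below the count minimum, with 20 UMIs in positive and 154 in negative cells (-0.46, -1.24 to 0.19). Cyp27a1, which oxidises the sterol side chain, had 28 and 141 UMIs (0.14, -0.52 to 0.72).

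Among 16 bile acid and sterol transporters 4 were measured. Slco1b2, which takes up organic anions and bile acids, stood at 3266 CPM in positive and 2022 CPM in negative HFD cells (0.69, 0.55 to 0.83), at 4111 and 2222 CPM in HFD_HDCA, and at 1876 and 975 CPM in ND. It was the only one of the 4 past 1.5-fold. Slc10a1, the sodium-dependent bile acid importer, was at 0.12 (-0.16 to 0.37), and Abcc2, an exporter of conjugates into bile, at 0.51 (0.13 to 0.86). Of 29 genes known to regulate Cyp7a1 only 4 were measured and 0 were past 1.5-fold in either direction. They included Hnf4a, an activator of Cyp7a1 (-0.15, -0.78 to 0.39), and Klf15 (0.50, 0.05 to 0.92). Over the other draws Klf15 ranged from -0.02 to 0.42, so no direction is given for it. The Fxr gene Nr1h4 had 13 UMIs in positive and 64 in negative cells, and Nr0b2, the repressor Shp, had 10 and 67. For Hnf4a, Nr1h4 and Nr0b2 no difference was detectable at this depth. Cholesterol synthesis had 7 measured genes with a median of 0.16 and 0 past 1.5-fold.

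Other lists had smaller medians than the pericentral genes. Beside them, 4.67% of all 857 genes were at least 1.5-fold higher and 3.27% lower, with a median of 0.03. Of 11 measured genes of lipogenesis 10 were below 0 and 2 past 1.5-fold, with a median of -0.33 over all cells and -0.06 within bins. Of 24 measured genes of the urea cycle and amino acid metabolism 5 were at least 1.5-fold lower (Hal, Sds and Gls2 of the zone score, Asl and Cbs), with a median of -0.19. Among 17 measured genes of drug metabolism 2 were past 1.5-fold, Ugt2b1, a glucuronidation enzyme (0.75), and Gsta3, a glutathione transferase (0.62). Over the other draws Ugt2b1 ranged from 0.34 to 0.90 and Gsta3 from 0.51 to 0.62. Neither was thus past 1.5-fold in every draw. Of 13 measured targets of the fatty acid receptor PPARα 1 was higher, Cyp4a10, a fatty acid hydroxylase (0.70, and 0.12 within bins). Over all cells Cyp4a10 ranged from 0.20 to 0.95 in the other draws, so it was not past 1.5-fold in each. Immediate early and heat shock genes (10 measured, median -0.15), endoplasmic reticulum stress genes (12, median 0.02) and ribosomal protein genes (45, median 0.07) had 0 members past 1.5-fold. Oxidative phosphorylation had 1 of 36 lower, with a median of -0.01.

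**Figure D5:**
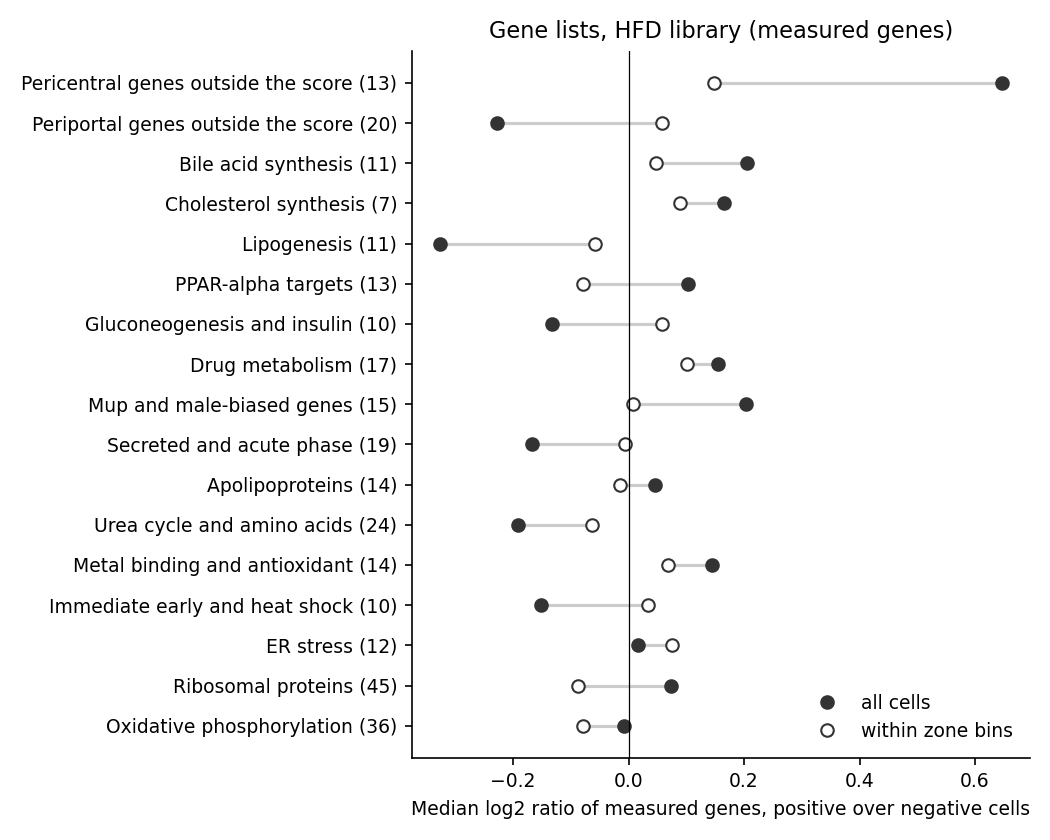
Median log2 ratio of Cyp7a1-positive over negative HFD cells for the measured genes of 17 lists (number of measured genes in brackets), over all cells (filled) and within zone bins (open, zone score genes left out). The largest medians over all cells are those of pericentral genes outside the score (0.65) and lipogenesis (-0.33), at 0.15 and -0.06 within bins.

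Cells with 2 or more Cyp7a1 molecules were set beside those with 1. The median zone score was 1.28 in the 32 cells with 2 or more UMIs, 1 in the 162 with 1 UMI and -1 in the 1081 with 0. Cyp2e1 stood at 8645 CPM (7606 to 9786) in cells with 2 or more UMIs, 7801 CPM (7351 to 8272) with 1 and 3882 CPM with 0. Slco1b2 stood at 3700 CPM (3032 to 4471), 3179 CPM (2894 to 3485) and 2022 CPM. Mup17 stood at 7815 CPM (6829 to 8903), 8722 CPM (8245 to 9219) and 4347 CPM. Cyp2c29 stood at 622 CPM (369 to 984), 1081 CPM (917 to 1265) and 443 CPM. Between 1 and 2 or more UMIs these genes thus went both ways, with overlapping intervals in each of the 4.

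In the libraries that the selection did not use, the same comparison gave like directions for the higher genes. Of the 40 HFD genes, 33 of 38 with enough counts were above 0 in HFD_HDCA (median 0.81) and 32 of 35 in ND (median 0.87), where 53.5% and 54.4% of all genes were. Of the 28 lower genes 21 of 28 were below 0 in HFD_HDCA (median -0.95) and 15 of 28 in ND (median -0.23). The median of all genes was 0.04 in HFD_HDCA and 0.05 in ND. With 54.4% of all genes above 0 in ND, the 15 of 28 lay near the share of all genes below 0. In ND the lower genes thus went both ways. The 25 positive cells of HFD_HDCA and the 45 of ND limit the precision of these ratios.

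Glul, the glutamine synthetase of the cells next to the central vein, was too sparse for a direction in HFD. In HFD it had 45 UMIs in positive cells and 100 in negative cells, of which 22 lay in 1 positive cell, and 18 of 194 positive cells (9.28%) and 55 of 1081 negative cells (5.09%) had a Glul UMI. The log2 ratio of 1.31 (0.76 to 1.82) ranged from -1.29 to 0.90 over the other draws, so no direction is given. In HFD_HDCA 9 of 25 positive cells (36.0%, 18.0 to 57.5%) and 115 of 1627 negative cells (7.07%) had a Glul UMI. In ND 3 of 45 positive cells (6.67%) and 36 of 1226 negative cells (2.94%) had one.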

How the data were processed

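Per the file headers and labels, the deposited files were matrices of UMI counts per gene and barcode, 1 per diet, made with Cell Ranger, whose version the file headers give as 5.0.0, and mapped to mm10 per the submitters' processing notes. How barcodes were selected is not given in the sources used here. Doublets were not removed; leaving out the 5% of cells with most UMIs was an alternative. Retained cells had 1004 to 6898 UMIs in HFD (median 2604), 1000 to 19515 in HFD_HDCA and 1001 to 21933 in ND.

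Counts were thinned with a fixed random seed, drawn separately for each cell. The way of seeding was altered once after results of a first draw had been seen, so that leaving out cells would not redraw the others; the seed was kept, and counts of genes past 1.5-fold moved. Draws with 9 other seeds are given beside it. Status, zone score and levels came from the thinned counts. Levels are per 1000000 nuclear-encoded counts without Cyp7a1. Log2 ratios used 0.5 added to each count, with exact conditional binomial 95% intervals. Ratios within bins compare observed counts of positive cells with those expected from negative cells of the same bin, with a normal interval on the log scale. Intervals of levels are exact Poisson and of shares exact binomial. For a count of 0 the limit is 3 counts. Cells rich in markers of other cell types had at least 5 UMIs of the endothelial, Kupffer, lymphocyte and stellate lists before thinning. Chromosomes and coordinates came from GENCODE M21, in which 32158 of 32285 features were found. The procedure was tested on simulated data. Python 3.11.15, numpy 2.4.6, scipy 1.17.1, pandas 2.3.3 and matplotlib 3.10.9 were used.

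Named genes were the 12 with the highest lower bound and the 12 with the lowest upper bound over all cells, 6 and 6 within bins, up to 3 per gene list and a set of fixed bile acid, sterol and zone genes, and any other gene of the 31 lists could be given with its value; not all are printed. Ribosomal protein, mitochondrial, Y-linked and unnamed genes were left out of the first 2 parts of that rule. The cells, the gene lists and the rules were chosen with earlier results of these data known.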

Additional observations from a re-analysis of the deposited data

Results flagged for a closer look

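Barcodes that the filters left out also held Cyp7a1. Only barcodes with at least 300 nuclear-encoded UMIs could be thinned to that depth, so the shares below are not of all barcodes left out. Thinned to 300 nuclear-encoded UMIs, 117 of 1454 such HFD barcodes with fewer than 500 genes had a Cyp7a1 UMI (8.05%, 6.70 to 9.57%). Of 108 with over 50% mitochondrial counts 13 had one (12.0%, 6.57 to 19.7%), against 64 of 1275 retained cells at that depth (5.02%, 3.89 to 6.37%). Among the barcodes with few genes the share was 10.7% in the most pericentral bin and 6.19% in the most periportal, against 8.24% and 1.18% in retained cells. Whether these barcodes are damaged cells or free RNA was not tested.

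A pair of genes stood out because the ratio ran the other way in another library. Cyb5r3, cytochrome b5 reductase, had a log2 ratio of positive over negative cells of -0.87 in HFD and 0.97 in ND. Over 9 other random thinnings its HFD ratio ranged from -0.89 to 0.066, so no HFD direction is given. Malat1, a nuclear long noncoding RNA, had -0.42 in HFD and 0.69 in HFD_HDCA, and its HFD ratio ranged from -0.56 to -0.31 over those thinnings and was -0.68 with no thinning and -0.011 with 700 nuclear-encoded UMIs. The differences between libraries were not tested.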

How the results depend on the processing

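The share of positive cells in the most pericentral bin was 51.4% with no thinning, against 29.0%, and stayed within its interval with 3 bins in place of 5, with at most 25% mitochondrial counts and without cells rich in other markers. With no thinning 68 genes were at least 1.5-fold higher and 60 lower (within bins 4 and 15), and the median of bile acid synthesis was 0.39. With positive cells taken at 2 or more UMIs the counts were 96 and 82 (within bins 41 and 87). With at least 100 summed counts they were 80 and 75 (35 and 53), with at least 500 they were 14 and 8 (0 and 0), at a lower fold threshold 114 and 89 (65 and 65), and at 2-fold 9 and 5 (0 and 0). Within bins 17 genes were lower with 700 nuclear-encoded UMIs and 14 with bins crossed with mitochondrial share.

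Random draws moved the results within bins. The main draw gave 10 higher genes, and the others gave 2, 3, 4 or 6 where they differed by over 1.5 times, with 3 or 14 lower genes against 9. One draw gave 24 higher genes over all cells. The ratio of unused Cyp7a1 was 2.42 and 2.41 in a pair of draws, and 1.29 and 1.30 within bins. The median of pericentral genes within bins was -0.013 in 1 draw and 0.0010 at 2 or more UMIs.

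Genes named within bins changed sign in some draws. Over all cells and within bins, Cpn2 was at -0.068 and -0.078 in 1 draw and at -0.22 and -0.071 in another, Rsrp1 at -0.094 and -0.048, and Cyb5r3 at 0.066 and 0.15. Ptp4a2 was at 0.53, 0.16, 0.081, 0.095, 0.41 and 0.031 over all cells in 6 draws, at 0.30 and 0.12 within bins in 2 of them, at 0.21 with no thinning and at 0.11 at 2 or more UMIs. Gpam was at 0.11 and 0.013 within bins and at 0.019 over all cells, and with 700 nuclear-encoded UMIs at 0.0058 over all cells and 0.019 within bins. Atp5d was at 0.091 within bins in 1 draw, and at 0.19 over all cells and 0.16 within bins with 700 nuclear-encoded UMIs. Within bins Ugdh was at -0.079 and Cdh2 at -0.033 in 1 draw each, and Lipa at -0.11 with 700 nuclear-encoded UMIs. Over all cells Sod2 was at -0.46 and Slc1a2 at -0.18 in 1 draw each, and Ces1d at -0.31 at 2 or more UMIs. Glul was at -1.19, -1.29, -0.12 and -0.92 in 4 draws and at -1.04 at 2 or more UMIs. The cause was not tested.

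No paired analysis was possible because each diet had 1 library. Depth limits what can be seen: at 1000 UMIs a cell most genes, and most regulators of Cyp7a1, fell under the count minimum. Leaving out cells with shared barcodes, the cell rich in red cell markers, and scoring zones from all UMIs were alternatives chosen after seeing the data, as were the draws for the unused UMIs and for the other libraries.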
